A study of Homo sapiens with 6 samples.

Results

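The 10 genes described here are feedback targets of Wnt signalling, the transcription factors that carry the signal, and a gene of liver zonation. They are AXIN2, NKD1, RNF43, ZNRF3, LGR5, TBX3, GLUL, LEF1, TCF7 and TCF7L2, taken by symbol from a table of 57773 genes, in which each had 1 row. RNA sequencing was done on Hep3B, a human hepatocellular carcinoma line, grown in EMEM with fetal bovine serum. Cells of the si-Cont group (3 libraries) received a control siRNA, and cells of the si-SMARCA4 group (3 libraries) received an siRNA against SMARCA4, the ATPase of SWI/SNF chromatin remodelling complexes also called BRG1. Both groups are transfected cells of a single line, and the labels read here do not state the siRNA sequences, the dose or the time after transfection. The labels do not say whether replicates were separate cultures, so each p-value speaks for the spread among these 6 libraries, which may be technical.

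In the Wnt pathway, a ligand binds a Frizzled receptor together with LRP5 or LRP6, which stops a destruction complex (built on AXIN and APC, with the kinases GSK3 and casein kinase) from degrading β-catenin. β-catenin then enters the nucleus and binds factors of the TCF/LEF family at target genes. Several targets feed back on the pathway: AXIN2 and NKD1 act inside the cell, RNF43 and ZNRF3 remove Frizzled receptors from the surface, and R-spondins, acting through LGR4 and LGR5, relieve that removal. In the liver, Wnt ligands from cells near the central vein keep GLUL, LGR5, AXIN2, TBX3 and RNF43 high in the surrounding hepatocytes, while a periportal programme with urea cycle enzymes prevails at the other end of the lobule.

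Of the 10 genes, 4 fell after SMARCA4 siRNA: GLUL, LGR5, RNF43 and ZNRF3. GLUL was at 66.3% of its si-Cont mean, LGR5 at 77.7%, RNF43 at 82.0% and ZNRF3 at 84.7%. TBX3 and TCF7L2 were tested and did not pass the threshold. AXIN2, NKD1, TCF7 and LEF1 lay under the expression minimum of the test, and among them LEF1 was the gene with higher values in every si-SMARCA4 library. Values are FPKM, the reads of a gene scaled by its length and by a total for the library, as the authors deposited them. Genes with a mean of at least 1 FPKM over the 6 libraries (11123 genes) were compared on log2(FPKM + 1) with limma, and a gene was called at a Benjamini-Hochberg adjusted p under 0.05 over all of them. On this scale the change of genes with low FPKM is understated.

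The calls have to be read against a wide background. Over all genes tested, 33.6% were called lower and 22.4% higher, 56.0% in either direction, against 4 lower and 0 higher among the 6 tested members. The median log2 fold change was -0.22 over the 6 tested members and -0.04 over all genes tested. Under median-ratio, upper-quartile and quantile scaling, the calls over all genes were 3253 higher and 3324 lower, 3425 and 3137, and 3346 and 3278, against 2494 and 3733 as deposited. The values of the si-Cont and si-SMARCA4 libraries did not overlap in 7 of the 10 members, 6 of them lower and 1 higher. The groups did not overlap in 38.3% of the 25119 genes with a mean above 0, 20.9% lower and 17.4% higher. Among the genes tested this share was 62.3%, with 36.6% lower and 25.7% higher.

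The libraries held 19084308 to 22719014 reads over genes, as recovered from the steps of the FPKM values. The library total that scales FPKM was larger. Reads over genes made up 68.92%, 65.5% and 69.47% of that total for control replicates 1, 2 and 3. After SMARCA4 siRNA their share was 64.25%, 62.84% and 63.78%, each below every control. FPKM as deposited carries this difference, and its part in the falls was not tested. SMARCA4 itself fell from a control mean of 17.3 ± 1.97 FPKM (SD, n = 3) to 3.86 ± 0.129 FPKM (SD, n = 3), or 22.3% of its control level (limma adjusted p = 1.63e-08), and 1343 to 1407 reads remained per si-SMARCA4 library. Hepatoma markers were high in both groups: the summed FPKM of 8 such genes was 1179 to 1259 for the controls and 987.8 to 1029 after SMARCA4 siRNA, with HNF4A, a liver transcription factor, at 40.1 to 41.2 FPKM and 25.4 to 27.2 FPKM. The markers went both ways: AFP, APOA1, HNF4A and APOB fell to between 54.4% and 77.1% of control, TTR, SERPINA1 and FGB rose to 154%, 125% and 123%, and TF was at 96.7% and not called. Of 8 endothelial markers, 8 were under 1 FPKM in every library, with CDH5, VWF and KDR at 0, and their sum was 0.374 to 0.527 FPKM in si-Cont and 0.714 to 0.861 FPKM in si-SMARCA4. Of 7 stellate or fibroblast markers 6 were under 1 FPKM (sums of 7.99 to 8.89 FPKM and 11.9 to 12.3 FPKM, carried by LUM), as were 5 of 7 immune markers (30.7 to 36.6 FPKM and 26.4 to 27.2 FPKM, carried by LYZ and CD68, with CD163 and MS4A1 at 0). The part of these shifts in the results was not tested, and fewer cells of a type and less RNA per cell cannot be told apart in bulk RNA. On the second principal component, which held 8.58% of the variance, si-Cont replicate 2 lay at -10.96 and the other 5 libraries between -1.83 and 5.70. This library had the highest of the 3 si-Cont values in 6 of the 10 members, and in 18.4% of the genes tested.

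GLUL encodes glutamine synthetase, which makes glutamine from glutamate and ammonia and is a standard marker of pericentral hepatocytes and of β-catenin activity in liver tumours. It had the highest level of the 10 members. The 3 si-Cont libraries had 45.1, 41.4 and 47.0 FPKM of GLUL, and the 3 si-SMARCA4 libraries had 29.4, 28.9 and 30.3 FPKM. The groups lay well apart, with every si-SMARCA4 library below the lowest si-Cont library, and between 8369 and 13422 reads stood behind each value. The mean went from 44.5 ± 2.83 FPKM (SD, n = 3) to 29.5 ± 0.741 FPKM (SD, n = 3), a log2 fold change of -0.57 (SE 0.06, limma adjusted p = 1.46e-05). GLUL remained called in each of 16 alternative settings, with log2 fold changes between -0.62 and -0.43.

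The GLUL messenger is also the member that holds, in its 3′ UTR, the longest form of the sequences TGTCCAA and CTGTCCA, which earlier work on these data found in genes that fell. They are shown here because they mark which members share that feature. In the GENCODE v29 annotation on GRCh38, and taking each gene's longest 3′ UTR, 6 of the 10 members held at least 1 of the 2 sequences, against 2114 of 10364 tested genes with an annotated 3′ UTR (20.4%). The median 3′ UTR length was 2034 bases in the members and 1386 bases in those genes. The 10 members include 4 under the expression minimum, while the share of 20.4% is over tested genes. Because the sequences were found in these same data, setting the members against that share is no independent test. The 8-base sequence CTGTCCAA, which contains both, was in GLUL alone among the members and in 2.91% of the tested genes. The sites of the 5 genes below are written 5′ to 3′ on the messenger strand, with the matching bases in capitals.
GLUL: tggggtgcacCTGTCCAAtaggcgtagc
ZNRF3: catcctttttTGTCCAAtgtattcctt
TBX3: tcttttttaaTGTCCAAaagtggggga
TCF7: aaaaaaagggCTGTCCAtgtattcaca
TCF7L2: cctggcccacCTGTCCAtgatgcctcc
The capital letters lie at chr1:182384105-182384112 on the minus strand for GLUL, at chr22:29055172-29055178 on the plus strand for ZNRF3 and at chr12:114670667-114670673 on the minus strand for TBX3. Those of TCF7 lie at chr5:134148001-134148007 and those of TCF7L2 at chr10:113165748-113165754, both on the plus strand. The site lay in the 3′ UTR of 5 of 5 coding transcripts of GLUL and 2 of 2 of TBX3, but in 1 of 3 of ZNRF3, 3 of 9 of TCF7 and 6 of 14 of TCF7L2. NKD1, the sixth gene, held CTGTCCA at 2 places, at bases 900 and 13394 of a 3′ UTR annotated at 15468 bases. RNF43, LGR5, AXIN2 and LEF1 held neither sequence. Of the 4 members called lower, 2 held a site and 2 did not, and of the 2 tested members that were not called, 2 held one. Which transcripts these cells express, and whether the sites have any part in the changes, was not tested.

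LGR5 is a receptor for R-spondins and a marker of Wnt-responsive stem cells in the intestine and of pericentral hepatocytes. Its values were 3.72, 3.74 and 4.27 FPKM in si-Cont and 3.13, 2.92 and 3.07 FPKM in si-SMARCA4, from 492 to 705 reads per library. Every si-SMARCA4 library was below every si-Cont library. LGR5 fell from 3.91 ± 0.313 FPKM (SD, n = 3) to 3.04 ± 0.111 FPKM (SD, n = 3), a log2 fold change of -0.28 (SE 0.06, limma adjusted p = 0.00145). The call held in each of 15 alternative settings. LGR4, the related receptor, was more abundant per length, with means of 19.5 ± 1.15 FPKM for the controls and 20.9 ± 0.814 FPKM after SMARCA4 siRNA (SD, n = 3 each), and did not pass the threshold (log2 fold change 0.09, SE 0.06, limma adjusted p = 0.19). With 3 other scalings and with voom on the recovered reads LGR4 was called higher, with log2 fold changes of 0.14 to 0.16 and limma adjusted p between 0.0128 and 0.0242. The ratio of LGR4 to LGR5 was 5.60, 4.96 and 4.50 in the si-Cont libraries and 6.78, 7.34 and 6.50 in the si-SMARCA4 libraries, without overlap. Its log2 difference was 0.46, at the smallest p that an exact permutation test of 3 against 3 libraries can give (p = 0.1, two-sided; 0.3 after Benjamini-Hochberg adjustment over 3 ratios).

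RNF43 and ZNRF3 are related transmembrane ubiquitin ligases that clear Frizzled receptors from the cell surface. RNF43 was at 6.30, 7.47 and 6.65 FPKM in si-Cont and at 5.46, 5.71 and 5.57 FPKM in si-SMARCA4, and the groups did not overlap. It fell from 6.81 ± 0.599 FPKM (SD, n = 3) to 5.58 ± 0.125 FPKM (SD, n = 3), with a log2 fold change of -0.24 (SE 0.06, limma adjusted p = 0.00441). ZNRF3 was at 4.48, 4.62 and 4.40 FPKM in si-Cont and at 3.70, 3.56 and 4.17 FPKM in si-SMARCA4. The third si-SMARCA4 library came nearest to the controls but stayed below each of them. ZNRF3 fell from 4.50 ± 0.112 FPKM (SD, n = 3) to 3.81 ± 0.319 FPKM (SD, n = 3), with a log2 fold change of -0.20 (SE 0.06, limma adjusted p = 0.0111). Under upper-quartile scaling neither ligase was called: limma adjusted p was 0.0505 for RNF43 (log2 fold change -0.18) and 0.0663 for ZNRF3 (-0.14). ZNRF3 also missed the threshold without si-SMARCA4 replicate 2 (-0.16, limma adjusted p = 0.0573).

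The balance of the ligases did not shift beyond the spread. The RNF43 to ZNRF3 ratio averaged 1.51 ± 0.106 in the controls and 1.47 ± 0.133 after SMARCA4 siRNA (SD, n = 3 each), a log2 difference of -0.04 (exact permutation test, two-sided, p = 0.7; adjusted over 3 ratios, 0.7). The sign turned without si-Cont replicate 2 (0.01) and without si-SMARCA4 replicate 3 (0.03). RNF43 shares 143 of its 7505 annotated exon bases with SUPT4H1 on the same strand, a gene at up to 22.4 FPKM here, so some reads could have been assigned to either. It also shares 4326 with AC004687.2 on the same strand, which was not analysed here.

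AXIN2 and NKD1 are feedback inhibitors inside the cell: AXIN2 is a scaffold of the destruction complex and the most general Wnt target, and NKD1 binds Dishevelled. Both were too low for the limma fit. AXIN2 was at 0.590, 0.495 and 0.502 FPKM in si-Cont and at 0.489, 0.438 and 0.403 FPKM in si-SMARCA4, from 64 to 101 reads. The groups did not overlap, but the gap between si-Cont replicate 2 and si-SMARCA4 replicate 1 was narrow, and the mean in si-SMARCA4 was 83.8% of that in si-Cont. The exact permutation test, two-sided, gave p = 0.1, its smallest possible value, and fits that include AXIN2 did not call it: with no filter on low values the log2 fold change was -0.08 (limma adjusted p = 0.236), and with voom on reads, over genes with at least 60 in total, it was -0.20 (SE 0.14, limma adjusted p = 0.263). NKD1 had the fewest reads of the 10 genes: 26, 26 and 36 in si-Cont and 26, 15 and 14 in si-SMARCA4. These gave 0.161, 0.182 and 0.233 FPKM against 0.157, 0.0939 and 0.0933 FPKM, with the first si-SMARCA4 library close to the lowest control. The mean in si-SMARCA4 was 59.7% of that in si-Cont (exact permutation test, two-sided, p = 0.1). Neither fit called NKD1, with a limma adjusted p of 0.0958 with no filter and 0.0538 with voom (log2 fold change -0.69, SE 0.27).

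TBX3, a T-box repressor and a Wnt target in hepatocytes and liver tumours, showed no call in any of 15 settings. Its values were 1.29, 1.30 and 1.11 FPKM in si-Cont and 1.30, 1.30 and 1.39 FPKM in si-SMARCA4, and the groups overlapped. The means were 1.24 ± 0.107 FPKM (SD, n = 3) and 1.33 ± 0.05 FPKM (SD, n = 3), with a log2 fold change of 0.06 (SE 0.06, limma adjusted p = 0.398). Of GLUL and TBX3, both pericentral targets, GLUL passed the threshold. The log2 fold change of TBX3 was no larger than its SE and gives no direction.

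**Figure D1:**
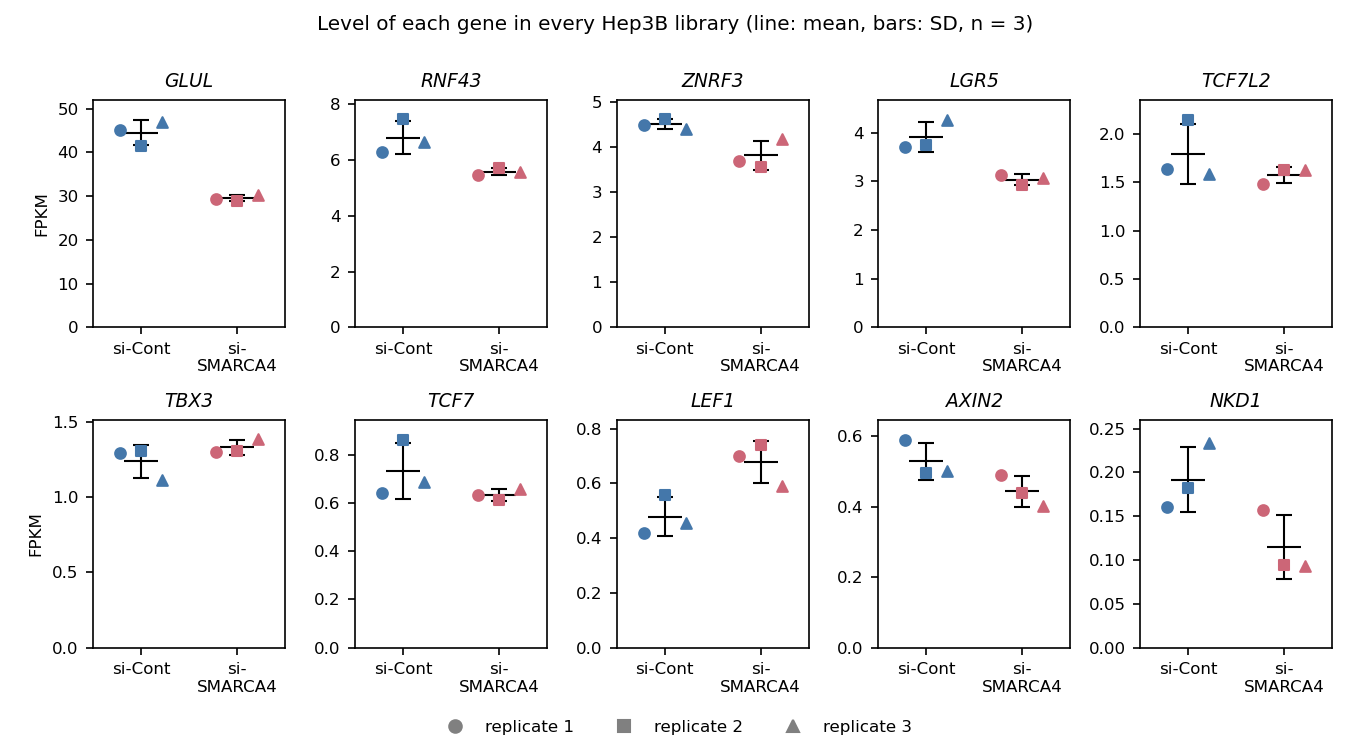
FPKM of the 10 genes, each in a panel with its own linear axis from 0, in every library (points, shaped by replicate number), with the mean (line) and SD (bars) of 3 libraries. GLUL lies highest, with groups well apart, from 41.4 to 47.0 FPKM in si-Cont and from 28.9 to 30.3 FPKM in si-SMARCA4, while NKD1 lies lowest and LEF1 is the gene whose si-SMARCA4 points all lie above the controls.

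TCF7L2, TCF7, TCF7L1 and LEF1 make up the TCF/LEF family, which binds DNA at Wnt targets and recruits β-catenin or, without it, Groucho/TLE repressors. TCF7L2 was at 1.64, 2.15 and 1.59 FPKM in si-Cont and at 1.48, 1.63 and 1.63 FPKM in si-SMARCA4, with overlap. Its log2 fold change of -0.11 (SE 0.07) did not pass the threshold (limma adjusted p = 0.236), and without si-Cont replicate 2 it was -0.02. TCF7 was at 0.642, 0.863 and 0.689 FPKM in si-Cont and at 0.632, 0.611 and 0.657 FPKM in si-SMARCA4, also with overlap (exact permutation test, two-sided, p = 0.2). TCF7 shares 210 of 10063 annotated exon bases with SKP1 on the opposite strand, which had up to 3723 reads in a library. Whether the counting used strand is not stated in the labels read here, so reads in that stretch cannot be told apart.

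LEF1 went the other way. It was at 0.419, 0.557 and 0.457 FPKM in si-Cont and at 0.700, 0.740 and 0.592 FPKM in si-SMARCA4, from 74, 87 and 77 reads against 127, 129 and 97. Each si-SMARCA4 library was above each si-Cont library, and the mean was 142% of the control mean. The difference of log2(FPKM + 1) was 0.18, with an exact permutation p of 0.1 (two-sided, the smallest possible). In a limma fit with no filter the adjusted p was 0.0589, and without each library in turn it lay between 0.0402 (without si-Cont replicate 2) and 0.17. With voom on the recovered reads, which does not add 1 FPKM to low values, the log2 fold change was 0.58 (SE 0.15) and LEF1 was called higher (limma adjusted p = 0.00866, and 0.00634 with replicate number as a block). In that fit 26.7% of 15091 genes were called higher and 51.9% in either direction. LEF1 therefore counts as higher on reads and not on FPKM without a filter. Its antisense neighbour LEF1-AS1 had at most 5 reads in a library.

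FPKM is per annotated length, and the levels of the 4 TCF/LEF genes are set against each other on that basis. The annotated exons span 10063 bases in TCF7 and 5361 in LEF1. TCF7 had 200 to 253 reads in a library and TCF7L2 had 251 to 316. The order of the shares therefore rests on annotated lengths, and which transcripts these cells express was not tested. TCF7L2 held the largest share of their summed FPKM, with means of 46.8% ± 0.635 for the controls and 45.1% ± 1.47 after SMARCA4 siRNA (SD, n = 3 each), a log2 difference of -0.06 (exact permutation test, two-sided, p = 0.2; adjusted over 3 ratios, 0.3). LEF1 held 12.1%, 11.96% and 13.5% in si-Cont and 20.5%, 20.7% and 16.9% in si-SMARCA4. TCF7L1, which acts mostly as a repressor and is no member, held 22.0%, 23.4% and 19.0% in the controls and 17.5%, 16.8% and 18.2% after SMARCA4 siRNA, and TCF7 held 18.5%, 18.5% and 20.4%, then 18.5%, 17.1% and 18.7%. LEF1 had the smallest share in each control library. It lay above TCF7 and TCF7L1 in si-SMARCA4 replicates 1 and 2, and was again the smallest share in replicate 3. No test was made on the shares of LEF1, TCF7 and TCF7L1, which are given as a description.

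**Figure D2:**
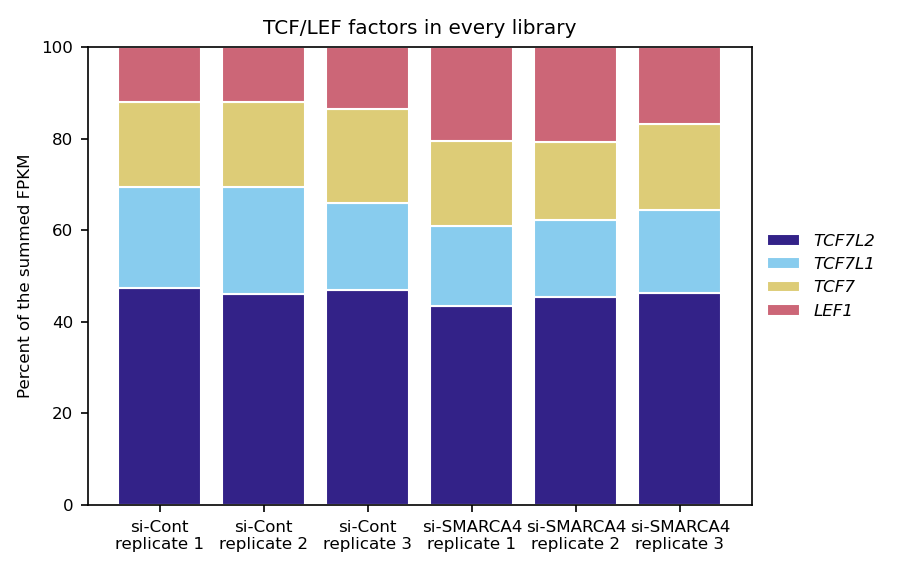
Share of each TCF/LEF gene, in percent of their summed FPKM, in each of the 6 libraries, with FPKM scaled by annotated gene length. TCF7L2 holds the largest share in each library, between 43.45% and 47.35%, and the LEF1 share lies between 11.96% and 13.5% in the controls and between 16.9% and 20.7% after SMARCA4 siRNA.

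In order of their si-Cont means, the 10 genes ran from GLUL through RNF43, ZNRF3, LGR5, TCF7L2, TBX3, TCF7, AXIN2 and LEF1 to NKD1. Neighbours in this order whose si-Cont values overlapped were AXIN2 and LEF1. In si-SMARCA4 the mean of LEF1 lay above those of TCF7 and AXIN2, with LEF1 at 0.677 ± 0.0764 FPKM (SD, n = 3) beside TCF7 at 0.633 ± 0.0230 FPKM (SD, n = 3), whose values overlapped, and AXIN2 at 0.443 ± 0.0435 FPKM (SD, n = 3).

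**Figure D3:**
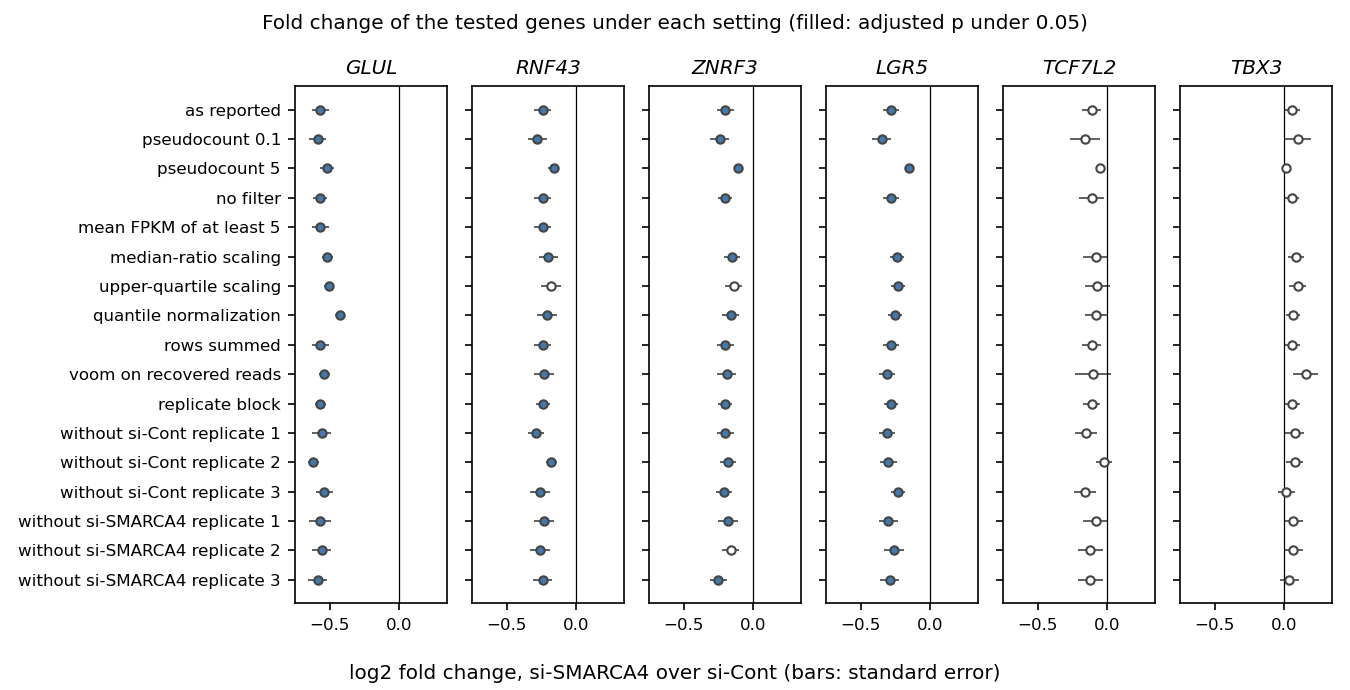
Log2 fold change of the tested members, si-SMARCA4 over si-Cont, in the fit as reported and under each alternative setting (filled points, adjusted p under 0.05; bars, standard error; rows summed, rows of 1 symbol added together). GLUL lies between -0.62 and -0.43 in every setting, RNF43 and ZNRF3 lose their call under upper-quartile scaling, ZNRF3 also without si-SMARCA4 replicate 2, and TBX3 lies between 0.02 and 0.16.

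The promoters of 5 members (GLUL, LEF1, TCF7, TCF7L2 and RNF43) were matched by symbol in a RefSeq promoter table on GRCh38.p14, with 10 windows of 250 bases before to 50 after a start. They were searched on both strands for CTTTGAT and CTTTGTT, the letters that TCF/LEF factors bind. None of the 10 windows held CTTTGAT, which is in 2.62% of all 35116 windows, and 2 held CTTTGTT, which is in 5.20%. Both belong to TCF/LEF genes, as do most of the 10 windows searched. The 2 matches are shown in capitals, in TCF7 as its reverse complement.
TCF7: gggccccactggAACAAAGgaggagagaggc
TCF7L2: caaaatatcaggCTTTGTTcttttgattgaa
The stretch of TCF7 lies at chr5:134123556-134123586 and that of TCF7L2 at chr10:113126488-113126518, both on the plus strand. A match describes letters and not binding.

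Around the members, the other genes of the pathway moved in both directions. Lists of 145 related genes held 68 that were tested, of which 12 rose, 26 fell and 30 did not pass the threshold. The share called, 55.9%, is next to the 56.0% of all genes tested, and the median log2 fold change was -0.07, against -0.04 over all genes tested.

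Among 25 ligand and secretion genes, 2 were high enough to be tested and both rose. WNT3, a ligand of the β-catenin pathway, went from 0.957 ± 0.168 FPKM to 1.31 ± 0.0830 FPKM (SD, n = 3 each; log2 fold change 0.24, limma adjusted p = 0.0124). WLS, the carrier that brings Wnt proteins to the surface, went from 2.26 to 2.59 FPKM (log2 fold change 0.14, limma adjusted p = 0.044). With no filter neither passed (limma adjusted p = 0.0617 and 0.102), and WLS also missed the threshold when any 1 of 4 libraries was left out (si-Cont replicates 1 and 2, si-SMARCA4 replicates 2 and 3). Of the R-spondins, the ligands of LGR5, RSPO1 and RSPO4 had 0 reads in every library, and RSPO2 and RSPO3 had at most 3 and 1.

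Of 11 tested receptors of 17 listed, 3 rose and 5 fell. The number that fell was 2 under upper-quartile scaling and without si-Cont replicate 3, si-SMARCA4 replicate 2 or si-SMARCA4 replicate 3, and 3 with no filter, under median-ratio scaling and without si-Cont replicate 1 or si-SMARCA4 replicate 1. FZD5, the Frizzled gene with the highest FPKM here, fell from 46.7 ± 3.61 FPKM to 34.8 ± 0.340 FPKM (SD, n = 3 each; log2 fold change -0.41, limma adjusted p = 2.03e-04). The co-receptor LRP6 fell from 11.2 to 9.97 FPKM (log2 fold change -0.15, limma adjusted p = 0.0141) and FZD1 from 1.31 to 1.00 FPKM (log2 fold change -0.21, limma adjusted p = 0.0177). FZD6, which can restrain β-catenin signalling, and RYK, a receptor without an active kinase, rose by log2 fold changes of 0.23 and 0.24 (limma adjusted p = 0.00607 and 0.00117). FZD1 was not called with no filter (limma adjusted p = 0.0658), nor without si-Cont replicate 1, si-Cont replicate 3 or si-SMARCA4 replicate 2, and LRP6 was not called under upper-quartile scaling (0.0509), nor without si-Cont replicate 3, si-SMARCA4 replicate 1 or si-SMARCA4 replicate 3.

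DKK1, a secreted inhibitor that binds LRP6 and is itself a Wnt target, was the gene of 15 secreted inhibitors with enough expression to be tested. It was at 206.5, 179.9 and 201.4 FPKM in si-Cont and at 108.2, 106.5 and 105.6 FPKM in si-SMARCA4. The groups lay far apart, and DKK1 fell by 0.87 on the log2 scale (SE 0.07, limma adjusted p = 1.64e-06), beside 0.57 for GLUL. Of all 15 inhibitors, 4 were at 0 in every library. DKK3, a relative of DKK1 under the expression minimum and named after its values were seen, went from 0.628 to 1.18 FPKM (with no filter a log2 fold change of 0.42, limma adjusted p = 0.00367). With no filter 1 inhibitor, DKK3, was called higher and 3 lower. Those lower were DKK1, NOTUM (63.3% of control, limma adjusted p = 0.0386) and WIF1 (39.3%, limma adjusted p = 0.0454). NOTUM and WIF1 were under the minimum and were also named after their values were seen.

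β-catenin itself, the gene CTNNB1, fell from 38.8 ± 2.79 FPKM to 30.9 ± 0.965 FPKM (SD, n = 3 each; log2 fold change -0.31, limma adjusted p = 0.00129). Of 21 tested genes in its list, 5 rose, 3 fell and 13 did not pass, while 3 rose without si-SMARCA4 replicate 2 and 8 with voom on the recovered reads. AXIN1, the constitutive scaffold of the destruction complex, rose from 2.57 to 2.99 FPKM (log2 fold change 0.16, limma adjusted p = 0.0219), but missed the threshold with no filter (0.0642) and without si-SMARCA4 replicate 2 (0.0933). APC was at 7.10 and 7.36 FPKM (limma adjusted p = 0.388; with voom on the recovered reads 0.044, called higher) and GSK3B, a kinase that marks β-catenin for degradation, at 5.99 and 5.87 FPKM (limma adjusted p = 0.771). The gamma casein kinases, which act at the receptor, differed among themselves: CSNK1G1 and CSNK1G3 rose (log2 fold changes 0.33 and 0.26, limma adjusted p = 1.10e-04 and 9.31e-04) and CSNK1G2 fell (-0.52, limma adjusted p = 2.56e-05).

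Of 14 tested nuclear partners of TCF/LEF, 7 fell and 0 rose, but without si-Cont replicate 2, the library that stood apart, 9 fell and 2 rose. AES, a short Groucho/TLE relative, fell from 31.4 to 19.4 FPKM (log2 fold change -0.67, limma adjusted p = 4.42e-06) and TBL1XR1, a co-regulator that binds β-catenin, from 16.4 to 11.0 FPKM (log2 fold change -0.53, limma adjusted p = 1.48e-05). TCF7L1, under the expression minimum, was at 0.763, 1.09 and 0.641 FPKM in si-Cont and at 0.596, 0.599 and 0.638 FPKM in si-SMARCA4 (exact permutation test, two-sided, p = 0.1). The control library 2 was the highest by far and the lowest control was just above the si-SMARCA4 libraries. TLE2, also under the minimum, was at 48.3% of control and was named after its values were seen. With no filter the log2 fold change of TLE2 was -0.33 (limma adjusted p = 0.0105).

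Among 8 tested Wnt targets outside the members, 4 fell, 1 rose and 3 did not pass; without si-Cont replicate 1 or si-SMARCA4 replicate 1, 0 rose. CCND1, which encodes cyclin D1, fell from 15.3 ± 0.384 FPKM to 11.1 ± 0.359 FPKM (SD, n = 3 each; log2 fold change -0.44, limma adjusted p = 2.57e-05), and BMP4 from 3.94 to 2.85 FPKM (log2 fold change -0.36, limma adjusted p = 1.09e-04). MYC was at 32.9 and 31.2 FPKM and not called (log2 fold change -0.07, limma adjusted p = 0.235), but was called lower without si-Cont replicate 2 (-0.10, limma adjusted p = 0.038). SALL4, an oncofetal transcription factor, rose from 1.87 to 2.22 FPKM (log2 fold change 0.16, limma adjusted p = 0.0232), a call that was lost with no filter and without either of those libraries. Targets under the expression minimum included larger rises, named after their values were seen. FOSL1, an AP-1 factor, went from 0.304 ± 0.0582 FPKM to 1.15 ± 0.196 FPKM (SD, n = 3 each; 378% of control; with no filter a log2 fold change of 0.72, limma adjusted p = 0.00142), from 13 to 21 reads against 58 to 77. CD44, a surface receptor for hyaluronan, went from 0.155 to 0.310 FPKM (with no filter 0.18, limma adjusted p = 0.00751). With no filter the list had 2 higher, FOSL1 and CD44, and 3 lower.

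Both zonation lists held genes at high and at very low levels. Of 13 pericentral genes 6 were tested, with 2 lower, 1 higher and 3 not called. CYP27A1, a bile acid enzyme, fell from 10.6 to 7.21 FPKM (log2 fold change -0.50, limma adjusted p = 4.57e-05) and RGN from 3.64 to 2.70 FPKM (-0.33, limma adjusted p = 0.00301), while SLCO1B3, an uptake transporter of pericentral hepatocytes, rose from 0.813 to 1.26 FPKM (0.31, limma adjusted p = 0.00191). CYP2E1, a classic pericentral enzyme, had 0, 3 and 0 reads in si-Cont and 8, 3 and 3 in si-SMARCA4, too few for a comparison. RHBG, another pericentral gene under the minimum, was at 25.6% of control, from 15 to 19 reads against 4 to 6. With no filter the log2 fold change of RHBG was -0.16 (limma adjusted p = 0.00148), and it was named after its values were seen. Of 15 periportal genes 5 were tested, of which 4 fell. ASS1, a urea cycle enzyme, fell from 22.4 ± 1.35 FPKM to 9.98 ± 0.308 FPKM (SD, n = 3 each; log2 fold change -1.09, limma adjusted p = 1.02e-07), ALB, which encodes albumin and has the highest FPKM in the lists, from 2269 ± 163 FPKM to 1425 ± 47.5 FPKM (-0.67, limma adjusted p = 5.65e-05), and CDH1, which encodes E-cadherin, from 22.9 to 13.2 FPKM (-0.75, limma adjusted p = 1.99e-06). ALB, named after its values were seen, was not called with no filter (limma adjusted p = 0.117). In that fit the periportal list had 3 lower and 2 higher. The urea cycle enzymes ARG1 and CPS1 were under the minimum: ARG1 had 9 to 16 reads in a library, and CPS1 had 0.169 to 0.198 FPKM in the controls against 0.241 to 0.282 FPKM after SMARCA4 siRNA (limma adjusted p = 0.0294 with no filter). Tested genes of both zones were among those that fell, such as GLUL on the pericentral side and ASS1 on the periportal side. On the pericentral side SLCO1B3 rose and TBX3 was not called. Falls in either zone stand beside 33.6% called lower over all genes tested.

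**Figure D4:**
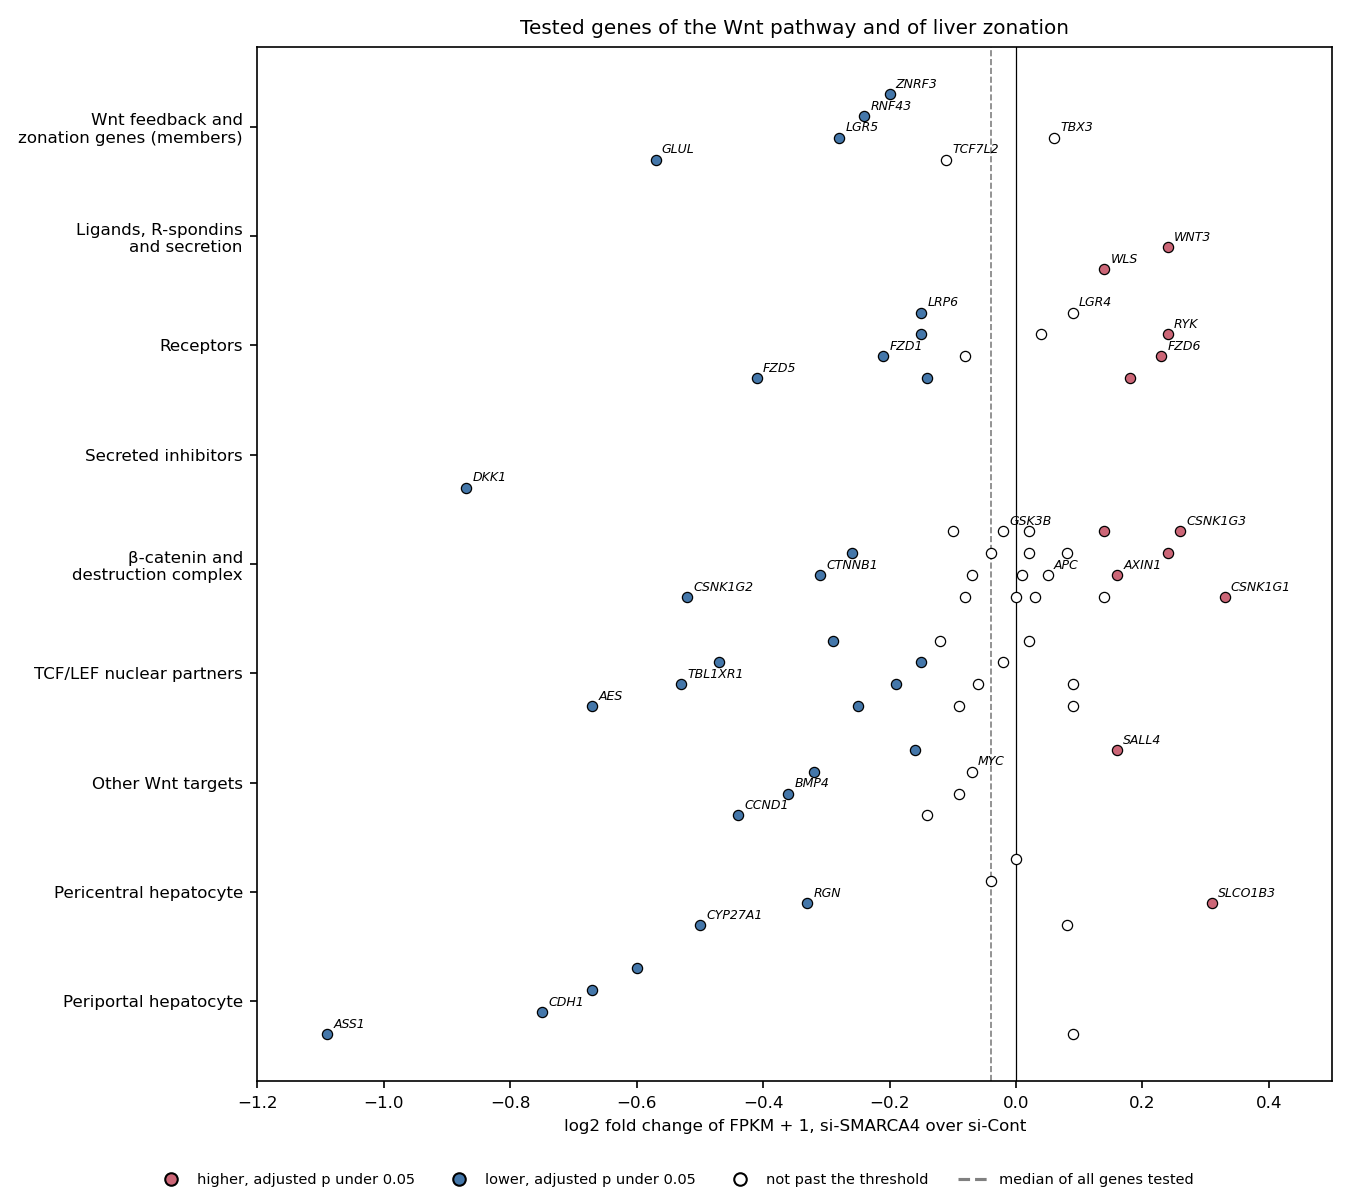
Log2 fold change of FPKM + 1, si-SMARCA4 over si-Cont, for each tested gene of the 10 members and the 8 related lists, with genes called higher or lower filled, genes not past the threshold open, and the median of all genes tested as a dashed line. ASS1 (-1.09) and DKK1 (-0.87) lie farthest to the left, GLUL (-0.57) is the lowest of the members, and no plotted gene lies above 0.33, while FOSL1 (0.72) and DKK3 (0.42), under the expression minimum, are not plotted.

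Over the 6 libraries, the tested genes whose log2(FPKM + 1) tracked GLUL most closely were ALB, CPN1 and AARS (Pearson r = 0.9998, 0.9996 and 0.9995), but 2073 of 11122 genes had an r over 0.95, since the libraries fall into 2 groups. For AXIN2 the closest were PPP1CB (r = 0.997), SFR1 (0.989) and SEMA3A (0.987), and 54 of 11123 genes had an r over 0.95. These are descriptions of 6 libraries that share their groups.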

How the data were processed

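The authors deposited FPKM for each gene and library, and the submitters' processing notes name hg19. The labels read here name no aligner or counting program and do not state strandedness. FPKM values were whole multiples of 1 read's worth in 25119 of 25119 genes with a mean above 0 (100%, relative tolerance 1e-08). Whole reads could therefore be recovered. The number of reads behind a value speaks for counting error alone, while the voom fits also take in the spread among the libraries.

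Genes with a mean of at least 1 FPKM were compared on log2(FPKM + 1) with the trend option of limma 3.58.1 (R 4.3.3, two-sided), adjusted by Benjamini-Hochberg over 11123 genes, at a threshold of 0.05. Single genes and ratios had an exact permutation test, whose smallest p is 0.1. The procedure was also run on simulated data in which a small part of the genes was raised and none lowered. That setting does not cover a change as wide, and in both directions, as the one here.

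The members and lists were chosen with earlier results of these data known. Named genes were the members, SMARCA4, 12 fixed pathway and zonation genes, and the 2 largest rises and falls past the threshold in each list. Any other gene named was chosen after its values were seen. Limma voom on genes with at least 60 reads, and the settings combined with no filter, were chosen after seeing the data.

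Libraries with the same replicate number deviated together (r = 0.215, 0.181 and 0.162), so replicate number was used as a block in alternative fits. That pairing comes from the data and not from the labels. The fit as reported and the permutation tests took the libraries as unpaired. Python 3.11.15, numpy 2.4.6, pandas 2.3.3 and matplotlib 3.10.9 were used.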

Additional observations from a re-analysis of the deposited data

How the results depend on the processing

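With replicate number as a block, 4 members were lower and 0 higher, as without it, the related lists had 13 higher and 27 lower (12 and 26 without), and all genes had 2710 higher and 4050 lower; the block changed no call of a member or of another named gene. Over genes with a mean of at least 5 FPKM, 2 members were called lower, since ZNRF3, LGR5, TCF7L2 and TBX3 are not tested there, with 4 related genes higher and 15 lower and 1387 of all genes higher and 2296 lower, as fewer genes are tested. Upper-quartile scaling called 2 members lower, and the cause was not tested. Leaving out each library in turn called 3 to 4 members lower and 0 higher. The same left 9 to 13 related genes higher and 20 to 28 lower, and 2040 to 2621 of all genes higher and 3050 to 4520 lower. The log2 difference of the RNF43 to ZNRF3 ratio was -0.04 and ran from -0.10 to 0.03, with its sign turned at 0.01 without si-Cont replicate 2 and at 0.03 without si-SMARCA4 replicate 3; the cause was not tested. Named genes that are no members kept direction and side of the threshold in 398 of 423 comparisons, lost the call in 19 and gained one in 6, with 0 reversed. Counts of single lists moved by over 1.5 times in 32 of 256 comparisons. The median log2 fold change of all genes was -0.043 as reported. Median-ratio, quantile and upper-quartile scaling moved it up by 0.0435, 0.0496 and 0.0566, and voom on the recovered reads by 0.0441. NKD1, LEF1, AXIN2 and TCF7 rest on 14 to 253 reads per library.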
